A study of Homo sapiens with 6 samples.

Results

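The genes described here are 10 transcription factors of epithelial and squamous tissue: ELF3, EHF, KLF4, KLF5, GRHL1, GRHL2, GRHL3, OVOL1, TP63 and SOX2. They were taken by gene symbol from a table of read counts for 62700 genes, and all 10 were found. RNA captured by its poly(A) tail had been sequenced from SAS cells, an established human line from a squamous cell cancer. The 3 control libraries came from cells given a control siRNA (siC; genotype labelled WT), and the 3 knockdown libraries from cells given an siRNA against the RNA-binding protein gene IGF2BP1 (siIGF2BP1; genotype labelled IGF2BP1 knockdown). The stated aim concerns IGF2BP1 and the repression of YAP1 by Hippo signaling, so the factors described here were not its named target. The labels give no siRNA sequence, no dose and no time after transfection, and they do not say whether replicates were separate cultures, so p-values cover only the spread among these libraries, and that spread may be technical.

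Epithelial cells keep their identity through a small circuit of DNA-binding factors. The ETS factors ELF3 and EHF, the grainyhead factors GRHL1 to GRHL3 and the zinc finger repressor OVOL1 act on junction, barrier and differentiation genes. In stratified epithelium p63, the product of TP63, maintains the basal layer, KLF5 is associated with proliferating cells and KLF4 with differentiating ones. SOX2, known from stem cells, lies on the long arm of chromosome 3 as TP63 does, and both genes are often gained in squamous carcinomas.

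IGF2BP1 itself had 185, 223 and 292 reads in the control libraries, numbered 1 to 3, against 29, 25 and 21 in the knockdown libraries, so its groups did not overlap. Library totals ranged from 17918496 to 26675064 reads, and 3 reads correspond to between 0.115 and 0.165 CPM (CPM, read counts put on a common scale of library size with TMM factors; such floors cover counting error only). Knockdown 1 was the shallowest library and stood further from the other knockdowns than the controls stood from each other: the chi-square per degree of freedom between replicates was 36.2 and 31.2 for its pairs and 14.6 to 15.3 among controls. For the factors described here, calls and signs that change without it are given with that value. For other genes such values are not given one by one. The epithelial keratin gene KRT8 averaged 8460 ± 257 CPM without and 4963 ± 54.0 CPM with the knockdown (SD, n = 3 each), so this epithelial marker was abundant in both groups.

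Of the 10 factors, ELF3 and GRHL3 fell, KLF4 rose, 6 did not pass the test (EHF, KLF5, GRHL1, GRHL2, OVOL1 and TP63), and SOX2 had too few reads to be tested. Calls were made below an adjusted p of 0.05 in edgeR's quasi-likelihood test over the 14649 genes that passed a filter on low counts. Among all tested genes 6.66% were called lower and 6.27% higher, against 2 and 1 of the 9 factors tested. The knockdown libraries lay wholly below the control libraries for 3 of the 9, ELF3, GRHL1 and GRHL3, and wholly above for 0; over all tested genes these shares were 15.1% and 15.5%, or 30.7% in either direction. The median log2 fold change (knockdown over control throughout) was -0.20 over the 9 factors and 0.03 over all tested genes. The summed level of the 10 factors was 344 to 363 CPM in controls and 185 to 214 CPM after knockdown. ELF3 gave the most reads of these factors in every library. The mean of ELF3 alone went from 194 to 59.7 CPM, so most of the fall in this sum was that of ELF3.

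**Figure D1:**
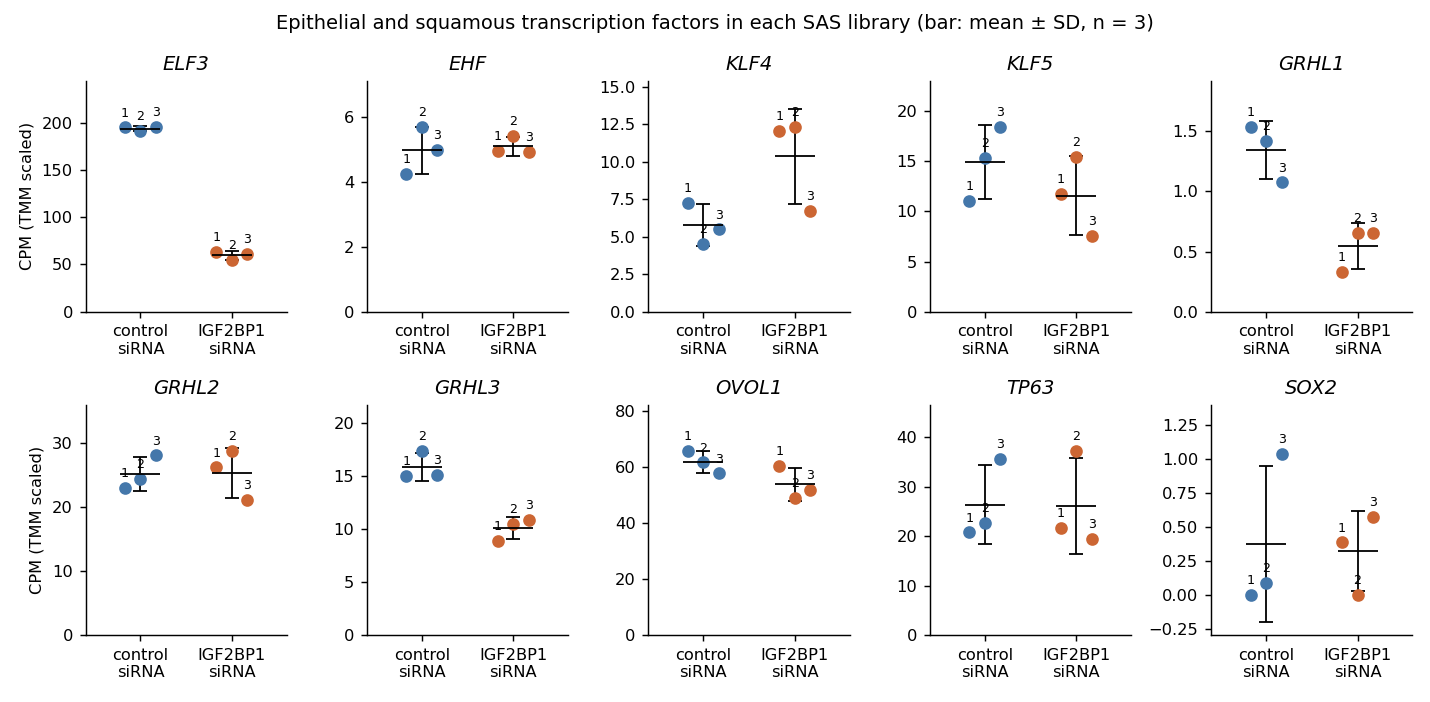
Level of each factor in every library, in CPM on a linear axis (numbers beside points are replicate numbers; bars are the mean and SD of 3 libraries). The ELF3 control libraries sit between 191 and 195 CPM and the knockdown libraries between 54.6 and 63.6 CPM, while the groups of TP63 and GRHL2 lie at the same height.

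ELF3 (ENSG00000163435; GRCh38 chromosome 1, 202007945 to 202017188, plus strand) encodes an ETS factor largely restricted to epithelium. The RefSeq window of 250 bases before the RefSeq start (GRCh38.p14, chr1:202010337-202010586, plus strand) lies inside the GENCODE gene, whose annotated start is further upstream. It is shown because ELF3 is the factor that moved furthest among those called; capitals mark the TATA box TATAAA and the E box CACCTG, the letters recognised by ZEB and SNAIL repressors.

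ELF3: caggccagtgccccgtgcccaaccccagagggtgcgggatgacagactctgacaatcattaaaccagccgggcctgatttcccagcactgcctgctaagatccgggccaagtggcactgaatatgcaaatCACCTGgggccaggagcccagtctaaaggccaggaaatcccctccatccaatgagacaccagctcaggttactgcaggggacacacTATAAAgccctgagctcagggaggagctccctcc

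The TATAAA match began 34 bases and the CACCTG match 120 bases before the start. Searched on both strands, TATAAA was found in 10.7% and CACCTG in 17.5% of 35114 RefSeq promoter windows of the same length, so neither match is rare. A match is a description of the letters and not a measured binding site.

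ELF3 stood at 195, 191 and 195 CPM in controls 1 to 3 and at 63.6, 54.6 and 61.0 CPM in knockdowns 1 to 3. Each knockdown library held less than the lowest control, and the spread within either group was small beside the gap. The level was 3.25-fold lower after knockdown (log2 fold change -1.70, SE 0.11, 95% interval -1.92 to -1.47, adjusted p = 3.55e-08). The call stood in all 13 alternative fits, in which the log2 fold change ran from -1.75 to -1.62. In bulk RNA, fewer cells with a transcript and less of it per cell cannot be told apart.

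ELF3-AS1, a long non-coding RNA gene on the opposite strand (chromosome 1, 201995696 to 202010463), fell as well. It overlaps the 5′ part of the GENCODE ELF3 gene. ELF3-AS1 lies on the minus strand, so it starts at 202010463, inside the window shown above, and runs away from the RefSeq start. Controls 1 to 3 held 189, 211 and 159 of its reads, knockdowns 1 to 3 held 89, 72 and 88, and the groups did not overlap. On the log2 scale it changed by -1.04 (SE 0.27, adjusted p = 0.0148), and the call was lost without control 2 (adjusted p = 0.075) or knockdown 3 (0.0622). In GENCODE release 29 the exons of ELF3-AS1 share 664 bases with those of ELF3, which is 11.9% of ELF3-AS1 and 9.23% of ELF3. ELF3-AS1 shares another 636 exon bases (11.4%) with RNPEP, on the strand opposite to its own, and ELF3 shares 664 with a gene of its own strand, AL691482.3. The strand setting of the counting is not given in the sources used here, so reads in these shared stretches cannot be assigned to a gene with certainty.

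EHF (ENSG00000135373; chromosome 11), the close relative of ELF3 in the epithelial ETS subfamily, did not pass the test. It was at 4.25, 5.68 and 4.99 CPM in controls 1 to 3 and at 4.95, 5.43 and 4.91 CPM in knockdowns 1 to 3. The knockdown values lie inside the range of the controls. The log2 fold change was 0.03 with a 95% interval from -0.49 to 0.56 (adjusted p = 0.952), and its sign turned without control 1 (-0.097) or knockdown 2 (-0.040).

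The ELF3 to EHF read ratio within a library, which needs no scaling factor, put a number on this difference between the relatives. Its log2 value was 5.51, 5.07 and 5.29 in controls 1 to 3 and 3.68, 3.33 and 3.63 across knockdowns 1 to 3. The knockdown mean was lower by 1.74 in log2 (exact permutation test, two-sided, p = 0.1, which is the smallest that 3 against 3 libraries can give; 0.12 adjusted over 6 ratios). The design therefore could not pass 0.05 for any such ratio, although the groups did not overlap for this one.

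KLF4 (ENSG00000136826; chromosome 9, 107484852 to 107490482, minus strand) encodes a zinc finger factor needed for the skin barrier. Its RefSeq window (GRCh38.p14, chr9:107489770-107490019, minus strand) is shown for contrast with that of ELF3, since KLF4 is the factor that rose; capitals mark the GC box GGGCGG on either strand, the letters to which SP and KLF proteins bind.

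KLF4: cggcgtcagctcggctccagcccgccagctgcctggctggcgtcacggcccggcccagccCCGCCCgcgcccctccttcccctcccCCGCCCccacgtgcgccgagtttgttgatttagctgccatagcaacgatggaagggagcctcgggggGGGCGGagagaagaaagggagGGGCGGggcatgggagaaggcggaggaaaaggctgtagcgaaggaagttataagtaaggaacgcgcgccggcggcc

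This window held 4 GC boxes and no TATAAA or CACCTG; 42.6% of all windows held at least 1 GC box. Its base composition was 69.2% G and C, against 58.4% in the ELF3 window.

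KLF4 was at 7.27, 4.52 and 5.49 CPM in controls 1 to 3 and at 12.04, 12.3 and 6.72 CPM in knockdowns 1 to 3. Knockdowns 1 and 2 lay above all controls, and knockdown 3 lay below control 1, so the groups overlapped. The log2 fold change was 0.84 (SE 0.27, 95% interval 0.28 to 1.41, adjusted p = 0.0473). This call was just inside the threshold: it was lost with limma-voom (adjusted p = 0.0783) and without control 2 (0.205), control 3 (0.149), knockdown 1 (0.143) or knockdown 2 (0.168), with log2 fold changes from 0.66 to 0.79 in these 5 fits.

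KLF5 (ENSG00000102554; chromosome 13) did not pass the test. It was at 11.04, 15.3 and 18.4 CPM in controls 1 to 3 and at 11.7, 15.4 and 7.56 CPM in knockdowns 1 to 3. The libraries of each group spread widely and overlapped. Its log2 fold change was -0.37 with a 95% interval from -0.90 to 0.16 (adjusted p = 0.395). The value moved with single libraries: leaving out knockdown 2 gave -0.67 (adjusted p = 0.0912), leaving out control 1 gave -0.57, control 3 -0.20 and knockdown 3 -0.14. KLF5 was called in none of these fits.

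The KLF4 to KLF5 read ratio did separate the groups. Its log2 value was -0.60, -1.76 and -1.74 in controls 1 to 3 and 0.04, -0.33 and -0.17 across knockdowns 1 to 3, so KLF4 reads came close to KLF5 reads after knockdown. The difference was 1.21 (exact permutation test, two-sided, p = 0.1, the smallest possible; 0.12 adjusted over 6 ratios). Across families, the KLF4 to ELF3 ratio differed most, by 2.52 in log2. It went from -5.09 ± 0.33 in controls to -2.58 ± 0.54 after knockdown (SD, n = 3 each, exact permutation p = 0.1), again without overlap. This pair joins the called rise to the largest called fall, so its size follows from the choice of pair and is no separate result.

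**Figure D2:**
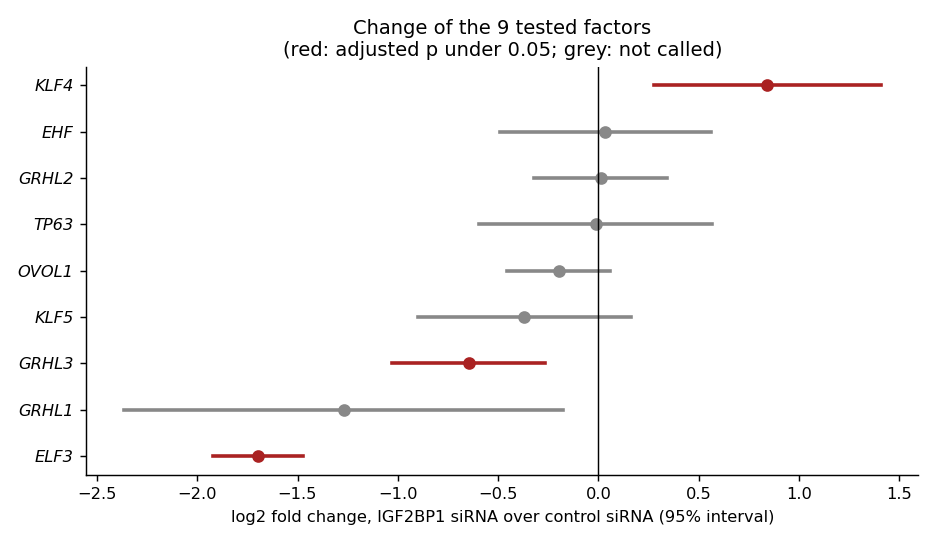
Log2 fold change of the 9 tested factors (points) with 95% intervals (lines), from edgeR's quasi-likelihood fit of 3 knockdown against 3 control libraries. ELF3 at -1.70 and GRHL3 at -0.65 are called lower and KLF4 at 0.84 higher; the intervals of EHF, KLF5, GRHL2, OVOL1 and TP63 include 0, and that of GRHL1 does not although it was not called.

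Of the 3 grainyhead genes, GRHL3 was the 1 called. GRHL3 (ENSG00000158055; chromosome 1, 24319322 to 24364482, plus strand), the member best known for sealing the epidermal barrier and closing wounds, fell. Of its RefSeq windows, the upstream one (GRCh38.p14, chr1:24319107-24319356, plus strand) is shown because it shares CACCTG with the window of ELF3, the other factor that fell; capitals mark CACCTG and the KLF element CACCC.

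GRHL3: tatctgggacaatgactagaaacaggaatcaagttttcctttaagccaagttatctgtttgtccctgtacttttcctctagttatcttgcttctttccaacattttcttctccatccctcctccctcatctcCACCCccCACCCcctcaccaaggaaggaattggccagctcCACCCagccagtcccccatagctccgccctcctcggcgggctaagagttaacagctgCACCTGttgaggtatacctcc

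CACCTG began 21 bases before this start and was not found in the downstream GRHL3 window. The upstream window was picked for this match, and any part of CACCTG in the falls was not tested. CACCC occurred 3 times here, and in 54.7% of all windows at least once. The grainyhead element AACCNGTT, the CArG box of SRF, the AP-1 element TGANTCA and the TEAD element GGAATG were not found in any of the 11 windows of the 8 factors that had one; 1.49%, 1.16%, 6.57% and 11.9% of all windows held them. The factors without a window were GRHL2 and OVOL1.

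GRHL3 was at 14.99, 17.4 and 15.1 CPM in controls 1 to 3 and at 8.91, 10.5 and 10.9 CPM in knockdowns 1 to 3. All knockdown libraries lay below all controls. The level was 1.57-fold lower (log2 fold change -0.65, SE 0.18, 95% interval -1.03 to -0.27, adjusted p = 0.0246). The call was lost without control 2 (adjusted p = 0.115), control 3 (0.0552) or knockdown 1 (0.0759), with the log2 fold change between -0.69 and -0.57.

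GRHL1 (ENSG00000134317; chromosome 2), which acts on desmosomal genes, had few reads. The counts were 35, 33 and 28 for controls 1 to 3, and for knockdowns 1 to 3 they were 6, 15 and 17. Its groups did not overlap either, yet it did not pass the test (log2 fold change -1.27, SE 0.52, 95% interval -2.36 to -0.18, adjusted p = 0.125). It stayed uncalled in the 12 alternative fits that tested it, with adjusted p-values from 0.115 to 0.277.

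GRHL2 (ENSG00000083307; chromosome 8), a direct activator of the E-cadherin gene, was at 23.0, 24.4 and 28.1 CPM in controls 1 to 3 and at 26.2, 28.7 and 21.1 CPM in knockdowns 1 to 3. The groups overlapped throughout. A log2 fold change of 0.01 was fitted, with a 95% interval from -0.32 to 0.34 (adjusted p = 0.978), and its sign turned in several alternatives, among them RLE scaling (-0.00399) and the fit without knockdown 1 (-0.016).

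Set against GRHL2 within each library, both relatives were lower after knockdown. The GRHL3 to GRHL2 ratio was -0.61, -0.49 and -0.89 in log2 in controls 1 to 3 and -1.55, -1.45 and -0.96 across knockdowns 1 to 3. The groups were separate, but the gap between control 3 and knockdown 3 was small. The difference was -0.66 for GRHL3 and -1.31 for GRHL1 (exact permutation test, two-sided, p = 0.1 each, the smallest possible; 0.12 adjusted over 6 ratios).

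OVOL1 (ENSG00000172818; chromosome 11), a repressor that favours the epithelial state and exit from proliferation, did not pass the test. It was at 65.9, 61.7 and 57.8 CPM in controls 1 to 3 and at 60.6, 49.1 and 52.0 CPM in knockdowns 1 to 3. Knockdown 1 lay within the control range and the other knockdowns below it. The log2 fold change was -0.20 with a 95% interval from -0.45 to 0.06 (adjusted p = 0.336). In GENCODE release 29, 27.1% of the OVOL1 exon bases also belong to an opposite-strand gene, so this value is uncertain. The deposited OVOL1 length, 3803 bases, is not the 3849 exon bases of that release, so the overlap in the counting may differ. OVOL1-AS1 held 2 to 13 reads in controls and 3 to 15 after knockdown and did not pass the test (adjusted p = 0.872).

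TP63 (ENSG00000073282; chromosome 3) was at 20.8, 22.8 and 35.6 CPM in controls 1 to 3 and at 21.7, 37.2 and 19.5 CPM in knockdowns 1 to 3. Control 3 and knockdown 2 were high and the other libraries low, so the spread within a group was larger than the difference between groups. The log2 fold change was -0.01 with a 95% interval from -0.59 to 0.57 (adjusted p = 0.986), and its sign turned in several alternatives, among them no scaling factor (0.080) and the fits without knockdown 1 (0.098), knockdown 3 (0.16) or control 3 (0.26). The counts are per gene, so the long (TA) and short (delta-N) p63 isoforms, which start at different promoters, are summed.

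SOX2 (ENSG00000181449; chromosome 3) was counted 0, 2 and 27 times in controls 1 to 3 and 7, 0 and 15 times in knockdowns 1 to 3. Each group contained a library at 0, where 3 reads would be 0.131 CPM in both libraries. With no filter on low counts its log2 fold change was -0.25 with a 95% interval from -2.14 to 1.64 (adjusted p = 0.916). The reads differed widely between libraries of 1 group, and changes within this interval could not be told from none. SOX2-OT, the long RNA gene in whose intron SOX2 lies, had 0 reads in every library, and GRHL3-AS1 had 1 read, in knockdown 1. The TP63 to SOX2 ratio differed by -0.40 in log2 (exact permutation p = 0.9), a value that the libraries at 0 make unstable.

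Levels of different genes were compared per kilobase of the deposited gene length. In controls ELF3 was highest at 26.98 ± 0.33 CPM per kilobase, followed by OVOL1 at 16.3 ± 1.06 (SD, n = 3 each). GRHL2 (4.15 ± 0.43), KLF5 (4.06 ± 1.00), GRHL3 (3.71 ± 0.31) and TP63 (3.53 ± 1.07 CPM per kilobase) came next, and neighbours among these 4 did not differ beyond their spread. KLF4 (1.57 ± 0.38), EHF (0.752 ± 0.11), GRHL1 (0.169 ± 0.030) and SOX2 (0.149 ± 0.23 CPM per kilobase) were lowest, and the last 2 overlapped.

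After knockdown the order per kilobase was exchanged at the top. OVOL1 led at 14.2 ± 1.57 CPM per kilobase and ELF3 followed at 8.31 ± 0.64 (SD, n = 3 each). Per kilobase, ELF3 was above OVOL1 in each of the 3 controls and below it in each of the 3 knockdowns. In CPM not divided by length, ELF3 (63.6, 54.6 and 61.0) stayed above OVOL1 (60.6, 49.1 and 52.0) in knockdowns 1 to 3. The exchange therefore depends on the deposited lengths, 7186 bases for ELF3 and 3803 bases for OVOL1. KLF4 reached 2.83 ± 0.86 and passed GRHL3, which was at 2.37 ± 0.24 CPM per kilobase, in knockdowns 1 and 2 but not in knockdown 3. The opposite-strand overlap of OVOL1 limits how exactly its level is known.

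**Figure D3:**
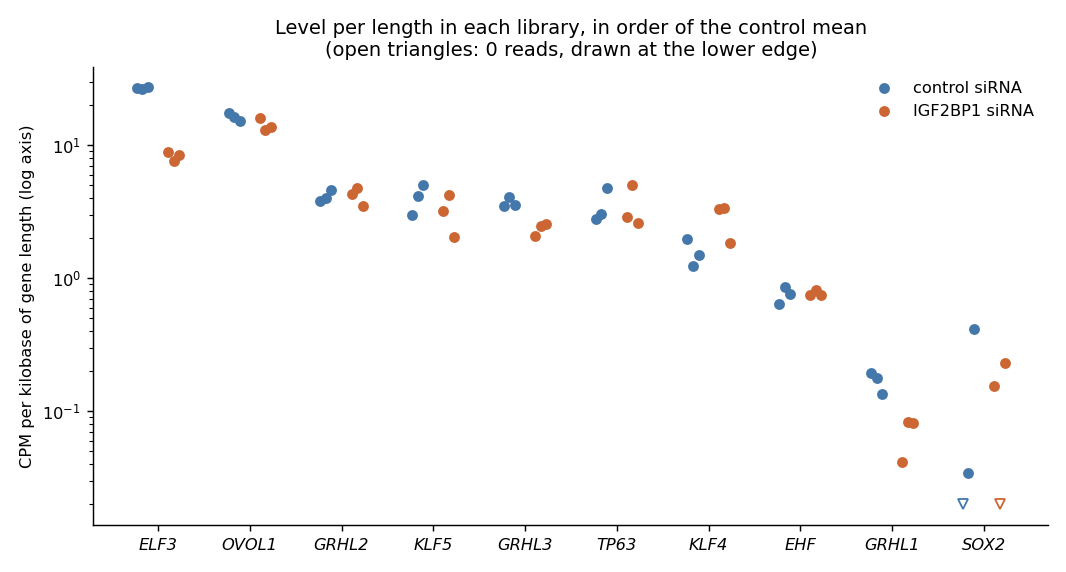
Level per kilobase of gene length in each library on a log axis, with the factors ordered by the control mean (CPM per kilobase; open triangles are libraries with 0 reads). ELF3 drops from 26.98 to 8.31 CPM per kilobase, below OVOL1, while GRHL2, KLF5, GRHL3 and TP63 form a group between 2.06 and 4.996 in all 6 libraries.

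Other factors of epithelial and squamous identity were taken from a list of 36. Of these 26 were tested, 3 fell and 0 rose, beside 6.66% and 6.27% of all tested genes, with a median log2 fold change of 0.01 and single values from -0.99 to 0.65. CEBPD, a C/EBP factor of the acute phase response, fell from 121 ± 16.8 to 67.4 ± 6.51 CPM (means ± SD over 3 libraries; log2 fold change -0.85, adjusted p = 2.23e-04), and PITX1, a homeobox factor of oral and limb tissue, changed by -0.53 in log2 (adjusted p = 0.00207). The list had 0 higher members in this fit, but 3 with no scaling factor and 3 among genes of at least 5 CPM. The 4 of 36 genes with no read in any library are among those not tested.

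Close relatives of the 10 factors by protein family were read in the same way. Of 44 listed relatives 36 were tested, 2 rose and 4 fell, beside 6.27% and 6.66% of all tested genes, with a median log2 fold change of -0.04. The share that rose is near that background, so the rises named here describe single genes. KLF13, another Krüppel-like factor, fell by 1.02 on the log2 scale (adjusted p = 2.57e-04), and the ETS gene ETS2 by 0.53 (adjusted p = 0.00405). The ETS genes ETV5 (1.03, adjusted p = 0.00112) and ETV4 (0.49, adjusted p = 0.00955) rose. ELF4, an ETS relative of ELF3 outside the rule for named genes and chosen after its value was seen, fell from 107 ± 4.35 to 80.0 ± 6.09 CPM (means ± SD over 3 libraries; log2 fold change -0.43, adjusted p = 0.0139).

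Genes reported as targets of the factors were described by counts and medians. All lists were chosen with earlier results of these data known, so their shares are not an independent test. The target lists also share genes, among them CDH1. Of 25 ELF3 and EHF target genes 12 were tested, and 7 of these fell and 0 rose. Their median log2 fold change was -0.84, beside 0.03 for all tested genes, of which 6.66% fell. The iron-binding defence protein gene LCN2 fell from 38.3 ± 4.43 to 9.96 ± 2.36 CPM (means ± SD over 3 libraries; log2 fold change -1.94, adjusted p = 2.72e-06). The E-cadherin gene CDH1 changed by -1.60 in log2 (adjusted p = 7.11e-07) and the chemokine gene CCL20 by -1.49 (adjusted p = 0.00335). The chemokine genes on this list also respond to NF-kB, as background, and 13 of the 25 listed genes were not tested, 6 of them with no read in any library.

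Of 33 p63 target genes, all tested, 11 fell and 1 rose, beside 6.66% and 6.27% of all tested genes. TP63 itself was not called. The median of the list was -0.37. The basal keratin KRT5 changed by -2.91 in log2 (adjusted p = 1.05e-10), the laminin gene LAMB3 by -0.98 (adjusted p = 5.44e-05) and the Notch ligand gene JAG1 by -0.89 (adjusted p = 0.00179). KRT15, a keratin of basal and stem-like keratinocytes, rose from 23.6 ± 0.93 to 46.8 ± 3.40 CPM (means ± SD over 3 libraries; log2 fold change 0.99, adjusted p = 8.71e-05). Keratin genes have related copies, and how reads shared between them were counted is not given in the sources used here.

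The grainyhead targets, which include GRHL1 and OVOL1, held calls in both directions. Of 29 listed and tested, 5 fell and 3 rose, beside 6.66% and 6.27% of all tested genes, with a median of -0.11. CDH1, the receptor gene ERBB3 (-1.28, adjusted p = 1.59e-04) and the splicing factor gene ESRP2 (-0.54, adjusted p = 0.00529) fell. The tight junction gene CLDN4 (0.70, adjusted p = 2.23e-04), CLDN3 (1.87, adjusted p = 0.0378) and the membrane protein gene TMEM125 (0.49, adjusted p = 0.024) rose. CLDN3 held few reads, 8 to 10 in controls and 22 to 38 after knockdown. The calls of CLDN3 and TMEM125 were lost in 7 and 5 alternative fits, among them that without knockdown 1.

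The KLF4 and KLF5 targets also held calls in both directions. Of 34 listed 26 were tested, 6 rose and 7 fell, beside 6.27% and 6.66% of all tested genes, with a median of -0.15. CRCT1, of the epidermal differentiation complex, went from 0.551 ± 0.33 to 5.22 ± 0.53 CPM (means ± SD over 3 libraries; log2 fold change 3.23, adjusted p = 8.85e-05), and the envelope gene IVL changed by 2.42 in log2 (adjusted p = 2.23e-04). LGALS7 (2.26, adjusted p = 0.00575) has a near-identical neighbour, LGALS7B, so its value is uncertain. In controls IVL held 19 to 22 reads and LGALS7 4 to 33, so these rises started from few reads. Falls were in FGFBP1, a carrier of fibroblast growth factors (-1.91, adjusted p = 1.64e-07), CDH1 and the alkaline phosphatase gene ALPP (-1.22, adjusted p = 7.35e-06).

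**Figure D4:**
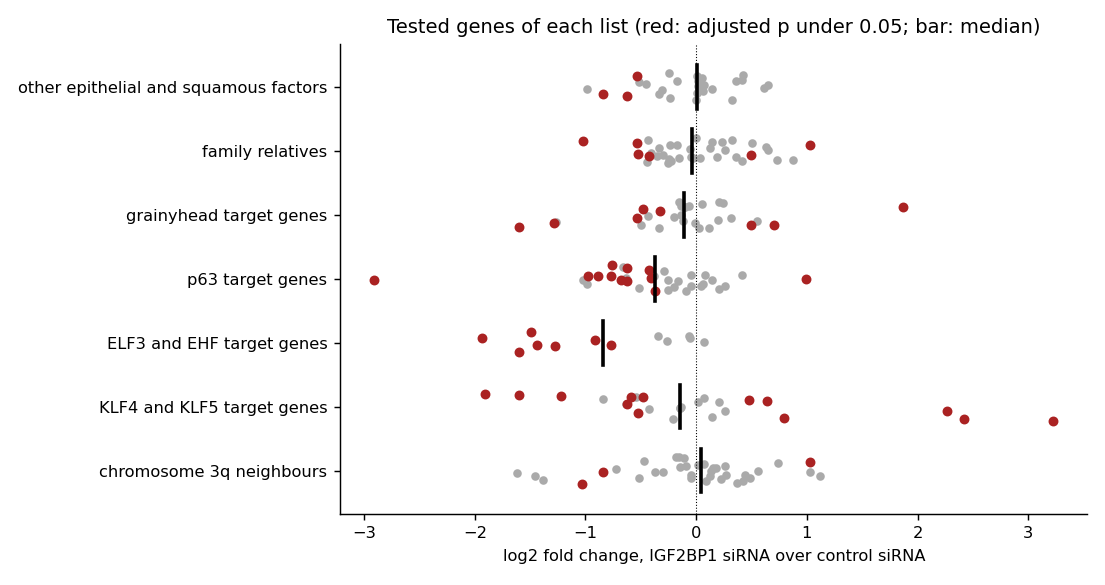
Log2 fold change of every tested gene of 7 lists (points; vertical position within a row is arbitrary; black bars are medians; red points are called). Red points of the ELF3 and EHF targets all lie below 0 with a median of -0.84, while those of the KLF4 and KLF5 targets lie on both sides. The lists were chosen with earlier results of these data known.

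TP63 and SOX2 were also set beside genes of the same chromosome arm. Of 39 listed genes of chromosome 3q 36 were tested, 1 rose and 2 fell, beside 6.27% and 6.66% of all tested genes, with a median log2 fold change of 0.04. These shares are not above the background, so the genes named are single genes and not a result about the arm. ETV5 is the rise, and the falls were in the transporter gene ABCC5 (-1.03, adjusted p = 4.21e-04) and the Notch effector HES1 (-0.84, adjusted p = 2.57e-04). Of 11 repressors of the epithelial state 7 were tested, 1 rose and 0 fell, beside 6.27% and 6.66% of all tested genes. The rise was in TWIST2 (0.54, adjusted p = 0.0221), a call lost in 4 alternative fits, among them that without knockdown 1. ZEB2, which binds CACCTG, had 0 reads in every library, while 9 of the 11 repressors had reads. The summed level of the repressors was 36.2 to 47.2 CPM in controls and 48.0 to 55.3 CPM after knockdown. TWIST2 alone averaged 21.1 ± 1.92 and 30.6 ± 2.69 CPM (SD over 3 libraries), so much of the rise in this sum was that of TWIST2.

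Markers of other cell types were low. The summed level of 12 fibroblast markers was 12.6 to 16.7 CPM in controls and 13.8 to 20.7 CPM after knockdown, with COL3A1, DCN, LUM, THY1 and POSTN at 0 in every library; PDGFRB was the 1 called (1.52, adjusted p = 0.0491). That of 8 endothelial markers was 7.11 to 8.404 and 8.27 to 14.6 CPM, with KDR, CLDN5 and EMCN at 0 in every library. That of 8 leukocyte markers was 17.5 to 18.5 and 12.3 to 14.3 CPM, with PTPRC, CD3E and NKG7 among those at 0, and that of 6 melanocyte markers 4.25 to 5.72 and 4.68 to 5.61 CPM, with TYR, DCT and MLANA at 0. Of 9 epithelial markers 7 fell and 0 rose, beside 6.66% and 6.27% of all tested genes. KRT7 fell the most of the simple keratins (-2.53, adjusted p = 1.95e-10). The part of these markers in the changes of ELF3, GRHL3 and KLF4 was not tested.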

How the data were processed

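Poly(A) RNA of 6 SAS libraries (3 control, 3 IGF2BP1 siRNA) was sequenced. The authors deposited unnormalised counts of reads for each gene and library. The submitters' processing notes name cutadapt 2.8, HISAT2 2.1.0, SAMtools 1.10, featureCounts 2.0.0 and hg38. Annotation release, strand setting and treatment of shared reads: not given in the sources used here. Another deposited column, gene length in bases, served only for levels per kilobase. Library names in the labels tied columns to samples, and 0 per-sample columns were left unused.

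Genes were kept with filterByExpr (minimum count 10, total 15) and tested in edgeR 4.0.16 (R 4.3.3): TMM, robust dispersions, glmQLFit and glmQLFTest, 2 groups, no covariate, Benjamini-Hochberg adjustment over 14649 genes, called under 0.05. SE is the coefficient over the square root of F. Ratios added 0.5 reads. The factors and lists were chosen with earlier results of these data known. Named were IGF2BP1, the 10 factors, up to 3 called genes per direction and list (at least 1 CPM), antisense RNAs, and the 3 genes most like each called factor; some genes the rule names are not reported here. Promoter windows are from RefSeq, gene positions from GENCODE 29. Deposited lengths of several factors are not their exon bases in that release (EHF, 6617 against 4386), so its overlaps may differ in the counting. Alternatives were RLE or no scaling, no filter, 5 CPM in 3 libraries, replicate block, DESeq2 1.42.0, limma-voom (limma 3.58.1) and each library left out. In 5 simulations of this comparison (14248 genes), 28.0% of 1.5-fold, 53.7% of 2-fold and 84.3% of 4-fold changes were called, and 7.65% of calls were false. Each simulation changed far fewer genes than were called in the data, so these shares need not hold for the calls here.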

Additional observations from a re-analysis of the deposited data

How the results depend on the processing

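Over all tested genes 918 were called higher and 975 lower; without scaling factors, where the median log2 fold change went from 0.03 to 0.12, the counts were 1319 and 768, and without a library the higher count ran from 529 (without control 2) to 828. Among the 10 factors 1 was higher, but 0 with limma-voom and 0 to 1 without a library; 2 were lower, and 1 to 2 without a library. Higher counts of lists changed from 0 to 3 (no scaling factor), 3 (at least 5 CPM in 3 libraries), 1 (no low-count filter), 2 (DESeq2) and 0 to 1 (without a library) for the other epithelial and squamous factors. For the family relatives they changed from 2 to 5, 4 (at least 5 CPM) and 4 (DESeq2), and for the p63 targets from 1 to 2 with no scaling factor. For the KLF targets they changed from 6 to 3 with at least 5 CPM, and to 3 to 5 without a library. Those of the grainyhead targets changed from 3 to between 1 and 2 without a library, those of the repressors of the epithelial state from 1 to between 0 and 1. The 1 fibroblast marker was lost (0) with no filter, at least 5 CPM, limma-voom and without any library. With DESeq2 the lower count on chromosome 3q was 4. The TP63 to SOX2 ratio difference turned without control 1 (0.762), knockdown 1 (0.321) or knockdown 3 (0.663) and ran from -2.19 to 0.762; the other 5 ratios kept their direction in every alternative. The log2 fold change of TP63 turned without control 3 (0.26, adjusted p = 0.62), knockdown 1 (0.098) or knockdown 3 (0.16) and ran from -0.39 to 0.26 without a library. The cause was not tested, except that fits without a library have fewer samples.

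Whether replicate numbers pair the libraries was not clear. Deviations from the group means correlated by 0.179, 0.0863 and -0.0730 for numbers 1 to 3, and by -0.235 to 0.166 between unlike numbers. With the replicate number as a block, 1158 genes were higher and 1273 lower, 1 factor rose and 2 fell as without it, 5 instead of 3 of the other epithelial and squamous factors were lower, and the exact p of the ratios became 0.25, the smallest that 3 pairs can give, and 0.75 for TP63 to SOX2. Of 40 called genes named besides the 10 factors, 31 kept call and direction in every alternative that tested them and 9 lost the call in at least 1.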

Other observations

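KLF5, GRHL2 and TP63, which did not pass the test between groups, shared an order within the groups: control 3 was the highest control and knockdown 2 the highest knockdown for all 3. This combination was seen for 2110 of 14649 tested genes (14.4%) and for 3 of the 9 tested factors, and it was picked out after the values were seen. TP63 stood at 35.6 CPM in control 3 and 37.2 CPM in knockdown 2, beside 19.5 to 22.8 CPM in the other 4 libraries. SOX2 did not share it, with 27 reads in control 3 and 0 in knockdown 2.

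The genes whose levels over the 6 libraries were most like those of a called factor were found by the root mean square difference of log2 CPM, each gene centred on its own mean, among 8036 genes of at least 5 CPM. For ELF3 these were SCLY (difference 0.067), the phosphatase gene DUSP2 (0.087) and TM9SF4 (0.092), with log2 fold changes of -1.83, -1.57 and -1.60. For GRHL3 they were the protease gene CTSC (0.048), GRPEL1 (0.050) and TPD52L1 (0.058), with log2 fold changes of -0.59, -0.58 and -0.66. For KLF4 the nearest genes were less close: SH3TC2 (0.23), the lipoxygenase gene ALOXE3 of the skin barrier (0.23) and a gene listed as FAM86JP.1 (0.24), with log2 fold changes of 0.65, 0.83 and 0.60.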
